A study of Homo sapiens with 12 samples.

Results

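The genes described here make, sense or move cholesterol and fatty acids. They were taken from a list of 33 names, 24 for sterols and 9 for fatty acids. Of these, 30 had a probe set annotated with that gene symbol alone, 22 sterol and 8 fatty acid genes, among 19775 genes with such a probe set. All 30 passed the filter on low values, which 10561 of the 19775 genes passed. The probe sets of CYP51A1 and FADS1 carry several symbols and are given no name, and FDFT1 was not analysed here. Each gene was read from the probe set whose mean across the 12 arrays was highest.

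RNA was measured in SEM-K2 and RS4:11, established cell lines of acute lymphoblastic leukaemia that both carry the MLL-AF4 (KMT2A-AFF1) fusion. Cells were exposed for 6 h to obatoclax, a small molecule designed to block the antiapoptotic BCL2 family proteins, or to vehicle. The obatoclax groups of each line received the concentration with a midway effect in a 72 h assay (EC50) or 3 times that concentration (3xEC50). The 6 groups were SEM-K2 3xEC50, SEM-K2 EC50, SEM-K2 vehicle, RS4:11 3xEC50, RS4:11 EC50 and RS4:11 vehicle, with 2 replicates each and 12 Affymetrix U133 Plus 2 arrays in all. The molar concentrations, and whether they were equal in both lines, are not given in the sources used here. The design text calls the replicates biologic without saying whether they were separate cultures or days, so a p-value reflects only how far such arrays lay apart, some of which may be technical. Each line is a single established culture, so a difference between them concerns these lines alone.

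Cells build cholesterol from acetyl-CoA by way of mevalonate, isoprenoid units, squalene and a chain of sterol intermediates, and they build fatty acids from the same precursor. The transcription factors SREBP-1 and SREBP-2 (genes SREBF1 and SREBF2) switch on most of these enzymes. The escort protein SCAP carries them to the Golgi for activation when membrane sterol is low, and INSIG proteins hold SCAP back when sterol is plentiful. INSIG1 is itself a target of SREBP, so that its RNA is widely read as a marker of the pathway.

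Of the 30 genes, 27 were matched to a promoter among the entries searched from the RefSeq table of GRCh38.p14. ACAT2, SQLE and FASN were not matched among these entries, which does not show that the table lacks them. Short motifs known from sterol-regulated promoters were searched on both strands, 250 bases before to 50 after each start. The 3 stretches below are shown because INSIG1 and SC5D had the largest rises in SEM-K2 at 3xEC50 among the sterol genes and both held the palindromic E-box CACGTG, a core that SREBP-1 can bind, and because SREBF2 held the sterol regulatory element form TCACNCCAC. Capitals mark CACGTG, TCACNCCAC, the GC box GGGCGG and the CCAAT box, which reads ATTGG where it lies on the other strand. All 3 lie upstream of the start, on the plus strand. The INSIG1 stretch is chr7:155297698-155297847, from 180 to 31 bases before the start. The SC5D stretch is chr11:121292621-121292740, from 150 to 31 bases before one of its starts. The SREBF2 stretch is chr22:41832955-41833024, from 150 to 81 bases before the start.
INSIG1: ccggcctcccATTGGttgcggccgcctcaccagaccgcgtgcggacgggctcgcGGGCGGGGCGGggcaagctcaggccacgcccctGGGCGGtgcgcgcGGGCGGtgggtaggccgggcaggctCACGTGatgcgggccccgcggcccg
SC5D: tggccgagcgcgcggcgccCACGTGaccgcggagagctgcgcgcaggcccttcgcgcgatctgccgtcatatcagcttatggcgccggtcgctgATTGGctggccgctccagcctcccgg
SREBF2: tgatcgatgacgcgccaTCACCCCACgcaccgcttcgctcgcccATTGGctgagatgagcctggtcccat
CACGTG was found in 4 of the 27 genes (INSIG1, LSS, SC5D and SCAP) and in 8.77% of the 27305 genes searched. TCACNCCAC was found in 2 of 27 (ACSL1 and SREBF2) and in 1.39% of the genes searched. The CCAAT box was found in 22 of 27 and in 39.7% of the genes searched, and GGGCGG in 26 of 27 and in 48.3%. A gene can have several starts, and any one counted. A match is a stretch of letters, not a measured binding site.

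Levels are the deposited GCRMA values, read as log2. Between 41.7% and 42.8% of probe sets lay above 4, the floor used here, on each array. SEM-K2 3xEC50 replicate 2 stood apart in signs of RNA quality: the 3' end of the ACTB control transcript read higher than its 5' end by 1.97, against 0.87 to 1.23 on the other 11 arrays, and for GAPDH by 0.61, against 0.08 to 0.30. Of 10 B cell precursor markers with a probe set, 10 lay above the floor in each RS4:11 group and 7 in each SEM-K2 group. Their summed log2 level ran from 83.69 to 87.31 in SEM-K2 3xEC50 and from 82.9 to 86.08 in SEM-K2 EC50, against 79.54 to 83.23 in SEM-K2 vehicle, and from 107.71 to 111.47 in RS4:11 3xEC50 and from 107.46 to 110.35 in RS4:11 EC50, against 102.41 to 108.14 in RS4:11 vehicle. Of the markers of other cells, 1 of 6 myeloid genes (CSF1R), 1 of 8 T and NK genes (NKG7) and 2 of 9 fibroblast and epithelial genes (COL1A1 and KRT8) lay above the floor. NKG7 had a log2 change of 1.21 at EC50 and 1.04 at 3xEC50 in SEM-K2 (adjusted p = 0.922 and 0.505, and 0.129 and 0.0948 with the replicate number as a block in the fit), where INSIG1 had 0.70 and 0.89. The summed level of the T and NK genes ran from 24.09 to 25.61 in SEM-K2 3xEC50 and from 24.71 to 25.52 in SEM-K2 EC50, against 23.38 to 24.46 in SEM-K2 vehicle, while the other 7 lay under the floor. CD72, a surface protein of B cells, rose by 0.91 on the log2 scale over both doses and lines (adjusted p = 0.0452 by limma), with 1.25 in SEM-K2 at 3xEC50 (adjusted p = 0.0991, and 0.0175 with the block). Over both doses and lines, 8 of the 10 B cell precursor markers lay above 0 and 2, PAX5 and EBF1, below. CD72 alone was called up there without the block, against 0.644% of all genes. With the block 2 were called up, against 2.68%. In SEM-K2 at 3xEC50 7 of the 10 lay above 0 and 3 below. The part of these markers in the results below was not tested.

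In SEM-K2, 6 h at 3xEC50 went with higher RNA of the sterol genes INSIG1, SC5D and SQLE, by 1.68-fold to 1.86-fold. None of these changes passed an adjusted p of 0.05 in limma without regard to replicate number, and all 3 passed once replicate number was a block. The fatty acid elongase gene ELOVL6 read 1.76-fold lower and passed in neither fit. These changes were larger on replicate 2, the array that stood apart in RNA quality. Against the same-numbered vehicle array, log2 differences there were 1.00 for INSIG1, 0.95 for SC5D, 1.01 for SQLE and -1.11 for ELOVL6. On replicate 1 they were 0.78, 0.66, 0.49 and -0.52. At EC50, read against the same vehicle arrays, replicate 2 gave 0.69, 0.78, 0.43 and -0.85 for these genes. Replicate 1 gave 0.71, 0.49, 0.32 and -0.12 there, so replicate 2 was again the larger except for INSIG1. The part of RNA quality or of the vehicle arrays in these differences was not tested. Of the 30 genes, 0 were called in SEM-K2 at 3xEC50 without the block, against 0.625% of all 10561 genes called up and 0.199% called down. With the block 3 of 30 were called up and 0 down, against 1.55% and 0.53% of all genes. At an unadjusted p under 0.05 without the block, 7 of 30 were up and 1 down, against 8.1% and 3.58% of all genes. Both 3xEC50 arrays lay above both vehicle arrays for 14 of 30 genes and below for 1, ELOVL6, against 22.6% and 14% of all genes. An adjusted p here is Benjamini-Hochberg over all 10561 genes, and ± marks the standard error of the fit without the block. In a bulk sample, more RNA per cell and more cells that hold it cannot be told apart.

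INSIG1, the sterol sensor partner of SCAP, had levels of 12.07 and 11.56 in SEM-K2 vehicle, 12.78 and 12.25 at EC50 and 12.85 and 12.56 at 3xEC50 (replicates 1 and 2). All 4 obatoclax arrays lay above both vehicle arrays. In RS4:11 the levels were 12.42 and 11.66 in vehicle, 12.70 and 11.98 at EC50 and 12.79 and 12.37 at 3xEC50, and the groups overlapped. In every group replicate 1 was the higher of the pair, and within each replicate number both doses lay above vehicle in both lines. The log2 change at 3xEC50 in SEM-K2 was 0.89 ± 0.34 (limma adjusted p = 0.353), and INSIG1 rose in the fit with the block (SE 0.15, adjusted p = 0.0187). At EC50 it was 0.70 ± 0.34 (adjusted p = 0.969, and 0.116 with the block). The RS4:11 change was 0.54 ± 0.34 at 3xEC50 (adjusted p = 0.999, and 0.27 with the block) and 0.30 ± 0.34 at EC50 (adjusted p = 1, and 0.657 with the block). All 3 INSIG1 probe sets went the same way in SEM-K2 at 3xEC50, with log2 changes of 0.89, 1.23 and 1.51. With the block, INSIG1 was called in SEM-K2 at 3xEC50 in 10 of 12 fits that each left out 1 array. It was not called without SEM-K2 3xEC50 replicate 2 (0.75, adjusted p = 0.166) or without SEM-K2 vehicle replicate 2 (0.91, adjusted p = 0.114).

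**Figure D1:**
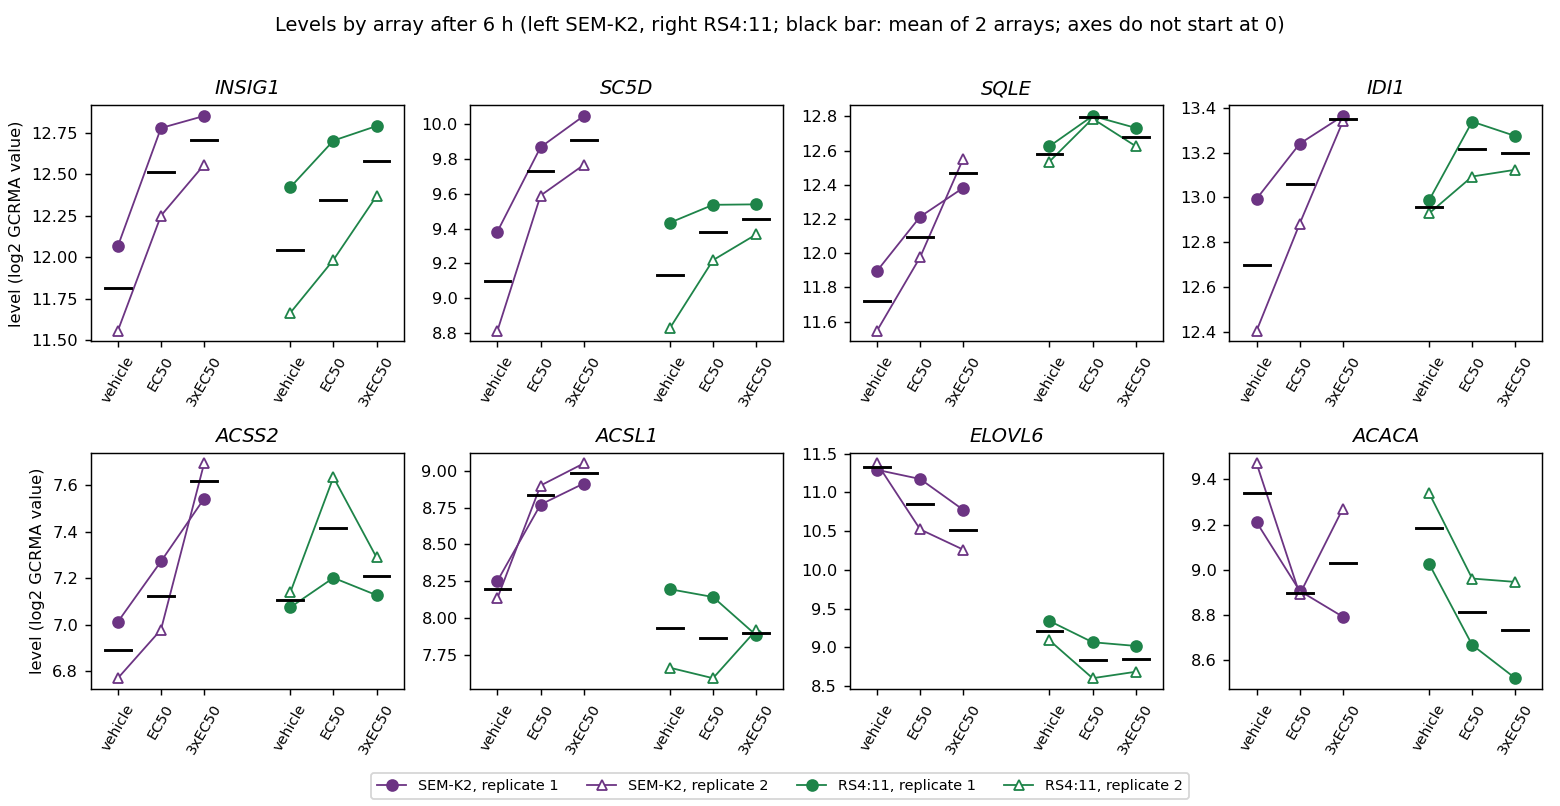
Level (log2 GCRMA value, vertical axes that do not start at 0) of 8 genes on each of the 12 arrays, by dose, with SEM-K2 (purple) left and RS4:11 (green) right in each panel. Filled circles are replicate 1, open triangles replicate 2, lines join arrays of 1 replicate number and black bars are means of 2 arrays. INSIG1 and SC5D lie higher at each dose in SEM-K2 on both replicate lines, ELOVL6 lies lower at each dose, and ELOVL6 sits about 2.12 log2 units higher in SEM-K2 vehicle than in RS4:11 vehicle.

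Of the other sensing and transport genes none was called against vehicle in either line with or without the block. SREBF2, which encodes SREBP-2, the main activator of sterol genes, stood at 9.67 and 9.44 in SEM-K2 vehicle, 9.71 and 9.44 at EC50 and 10.07 and 10.12 at 3xEC50. The 3xEC50 arrays were above all others of the line, with a log2 change of 0.55 ± 0.23 (adjusted p = 0.391, and 0.253 with the block). Its 2 other probe sets gave -0.49 and -0.14 in the same comparison, both of them above 0 in replicate 1 and below 0 in replicate 2. In RS4:11 SREBF2 stood at 9.62 and 9.82 in vehicle, 9.68 and 10.40 at EC50 and 9.71 and 9.70 at 3xEC50, with 1 EC50 array high and no common direction. SREBF1, which encodes SREBP-1, more tied to fatty acid synthesis, had 8.64 and 8.08 in SEM-K2 vehicle, 8.56 and 7.73 at EC50 and 8.86 and 8.08 at 3xEC50. Its levels overlapped across doses, and the change at 3xEC50 was 0.11 (95% interval with the block -0.23 to 0.44). In RS4:11 SREBF1 had 8.10 and 7.63 in vehicle, 8.18 and 7.82 at EC50 and 8.05 and 7.43 at 3xEC50.

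INSIG2, the related sterol sensor, had a log2 change of 0.22 ± 0.36 in SEM-K2 and 0.09 ± 0.36 in RS4:11 at 3xEC50. SCAP had one of 0.10 ± 0.19 in SEM-K2 at 3xEC50. In RS4:11 SCAP had 8.63 and 8.65 at 3xEC50 against 8.83 and 9.13 in vehicle, a change of -0.34 ± 0.19 (adjusted p = 0.999, and 0.475 with the block). STARD4, a soluble cholesterol transporter, had 10.37 and 10.09 in SEM-K2 at 3xEC50 against 9.95 and 9.79 in vehicle, a change of 0.36 ± 0.29 (adjusted p = 0.693). The RS4:11 value of STARD4 was 0.07 ± 0.29.

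Across the 7 genes of the mevalonate arm, which runs as far as the isoprenoid farnesyl diphosphate, the median log2 change in SEM-K2 was 0.15 at 3xEC50, with 4 above 0, and 0.24 at EC50, with 6 above 0. The median over all genes was 0.06 and 0.05. IDI1, the isomerase of the isoprenoid units, had 12.99 and 12.40 in SEM-K2 vehicle, 13.24 and 12.88 at EC50 and 13.36 and 13.34 at 3xEC50. The 3xEC50 arrays lay above both vehicle arrays, with a change of 0.65 ± 0.21 (adjusted p = 0.273, and 0.0822 with the block). In RS4:11 IDI1 had 12.99 and 12.93 in vehicle, 13.34 and 13.09 at EC50 and 13.27 and 13.12 at 3xEC50, so all 4 obatoclax arrays were above both vehicle arrays, by 0.26 ± 0.21 at EC50 and 0.24 ± 0.21 at 3xEC50 (adjusted p = 1 and 0.999). IDI1 rests on a probe set of a class that can match related transcripts. Its 1 probe set outside that class gave -0.44 in SEM-K2 at 3xEC50, at 0.38 in replicate 1 and -1.25 in replicate 2, and in RS4:11 at EC50 it gave -0.02. Within the class, the other IDI1 probe sets gave 0.61 and -0.26 in SEM-K2 at 3xEC50. The second of them gave -0.08 in replicate 1 and -0.44 in replicate 2.

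HMGCS1, the synthase that makes the precursor of mevalonate, had 10.91 and 10.52 in SEM-K2 vehicle, 11.33 and 10.65 at EC50 and 11.34 and 10.93 at 3xEC50. The change at 3xEC50 was 0.42 ± 0.28 (adjusted p = 0.618, and 0.192 with the block). Its second probe set gave -0.50, at 0.45 in replicate 1 and -1.45 in replicate 2. In RS4:11 HMGCS1 had 10.34 and 10.18 in vehicle, 10.53 and 10.02 at EC50 and 10.36 and 10.06 at 3xEC50, and the groups overlapped.

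MVK, the kinase that phosphorylates mevalonate, and MVD, the decarboxylase that follows, were low on the array that stood apart by the probe sets used. MVK had 8.13 and 5.70 in SEM-K2 at 3xEC50 against 7.53 and 6.80 in vehicle, and MVD had 5.66 and 2.43, the second of them under the floor, against 5.73 and 4.16. Neither was called, with changes of -0.25 ± 0.79 and -0.90 ± 0.92. The other MVK probe sets were not low on that array: they lay above the same-numbered vehicle array by 0.35 and 0.12, with changes of 0.30 and 0.17. ACAT2, the thiolase at the head of the arm, differed from vehicle by 0.21 ± 0.16 in SEM-K2 at 3xEC50, FDPS, the farnesyl diphosphate synthase, by 0.15 ± 0.21 and PMVK, the next kinase after MVK, by -0.23 ± 0.20. In RS4:11 at 3xEC50 the 7 genes ran from -0.15 to 0.39.

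Of the 9 genes of the sterol arm, which turns squalene into cholesterol, 8 lay above vehicle by the mean in SEM-K2 at 3xEC50, and the median log2 change was 0.45. At EC50 8 of 9 were above 0, with a median of 0.29. In RS4:11 4 of 9 were above 0 at each dose, with medians of -0.17 at 3xEC50 and -0.03 at EC50. Over all genes 58.6% were above 0 in SEM-K2 at 3xEC50, 61.9% at EC50, 54% in RS4:11 at 3xEC50 and 55.7% at EC50.

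SC5D, the desaturase that acts late in the arm, had 9.38 and 8.81 in SEM-K2 vehicle, 9.87 and 9.59 at EC50 and 10.05 and 9.77 at 3xEC50. All 4 obatoclax arrays lay above both vehicle arrays. The change at 3xEC50 was 0.81 ± 0.26, or 1.75-fold (adjusted p = 0.269), and SC5D rose in the fit with the block (adjusted p = 0.0296). At EC50 it was 0.63 ± 0.26 (adjusted p = 0.853, and 0.135 with the block). In RS4:11 SC5D had 9.43 and 8.83 in vehicle, 9.54 and 9.22 at EC50 and 9.54 and 9.37 at 3xEC50, with a change at 3xEC50 of 0.32 ± 0.26 (adjusted p = 0.999, and 0.532 with the block). Its other probe set, at a mean level of 3.80, was near the floor and gave -0.05 in SEM-K2. With the block SC5D was called in 6 of 12 fits that each left out 1 array, with changes of 0.69 to 0.93. The call was lost without either EC50 array of SEM-K2 or either 3xEC50 array of RS4:11 (adjusted p = 0.0572 and 0.0551), and without SEM-K2 3xEC50 replicate 2 or SEM-K2 vehicle replicate 2 (0.211 and 0.205).

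SQLE, the epoxidase that commits squalene to sterols, had 11.90 and 11.55 in SEM-K2 vehicle, 12.21 and 11.98 at EC50 and 12.38 and 12.55 at 3xEC50. The 3 doses did not overlap. The change at 3xEC50 was 0.75 ± 0.16, or 1.68-fold (adjusted p = 0.102), and SQLE rose in the fit with the block (adjusted p = 0.0411), where it was called in 2 of 12 fits that each left out 1 array, those without SEM-K2 3xEC50 replicate 1 or SEM-K2 vehicle replicate 1. In the other 10 the adjusted p was 0.0619 to 0.282. At EC50 the change was 0.37 ± 0.16 (adjusted p = 0.9, and 0.437 with the block). In RS4:11 SQLE had 12.63 and 12.54 in vehicle, 12.80 and 12.79 at EC50 and 12.73 and 12.63 at 3xEC50, close together, with changes of 0.21 ± 0.16 and 0.10 ± 0.16. The 4 SQLE probe sets gave 0.75, 0.57, 0.54 and 0.11 in SEM-K2 at 3xEC50.

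MSMO1, the oxidase that removes methyl groups from the sterol ring, had 12.37 and 11.97 in SEM-K2 vehicle, 12.68 and 12.37 at EC50 and 12.89 and 12.45 at 3xEC50, with a change at 3xEC50 of 0.50 ± 0.27 (adjusted p = 0.515, and 0.0767 with the block). The RS4:11 change of MSMO1 was 0.17 ± 0.27. NSDHL, a dehydrogenase of the same demethylation, had 8.72 and 8.69 in SEM-K2 at 3xEC50 against 8.55 and 8.20 in vehicle, and 8.21 and 8.13 in RS4:11 at 3xEC50 against 8.40 and 8.43 in vehicle. The changes were 0.33 ± 0.17 and -0.24 ± 0.17 (adjusted p = 0.483 and 0.999).

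DHCR7, the reductase that yields cholesterol from dehydrocholesterol, had 6.77 and 6.99 in SEM-K2 at 3xEC50 against 6.70 and 6.15 in vehicle, and 7.63 and 7.24 in RS4:11 at 3xEC50 against 7.83 and 7.69 in vehicle. The groups did not overlap in either line. The change was upward in SEM-K2 at 0.46 ± 0.24 (adjusted p = 0.515) and downward in RS4:11 at -0.32 ± 0.24 (adjusted p = 0.999). In SEM-K2 the difference from the same-numbered vehicle array was 0.07 in replicate 1 and 0.84 in replicate 2, the array that stood apart. The second DHCR7 probe set, at a mean level of 7.04 against 7.11, gave 0.23 in SEM-K2 and 0.014 in RS4:11. EBP, a sterol isomerase, had changes of 0.35 ± 0.24 in SEM-K2 and 0.12 ± 0.24 in RS4:11 at 3xEC50.

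LSS, the cyclase that forms lanosterol, had changes of 0.43 ± 0.26 in SEM-K2 and -0.28 ± 0.26 in RS4:11 at 3xEC50. Another probe set gave -1.12 in SEM-K2, at 0.44 in replicate 1 and -2.68 in replicate 2. In RS4:11 at EC50 LSS had 9.60 and 9.58 against 9.62 and 9.96 in vehicle. TM7SF2, a sterol reductase, differed from vehicle by 0.45 ± 0.39 and -0.17 ± 0.39 at 3xEC50 in SEM-K2 and RS4:11, and HSD17B7, the ketoreductase that rests on a probe set of the less specific class, by -0.02 ± 0.16 and -0.19 ± 0.16. HSD17B7 in RS4:11 at EC50 had 10.30 and 10.45 against 10.47 and 10.69 in vehicle.

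The 8 fatty acid genes had no common direction in SEM-K2. The median log2 change was 0.11 at 3xEC50, with 5 of 8 above 0, and -0.01 at EC50, with 4 of 8. In RS4:11 it was -0.21 at 3xEC50 and -0.17 at EC50, with 1 of 8 above 0 at each dose, ACSS2.

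ELOVL6, which lengthens the palmitate made by fatty acid synthase, had 11.29 and 11.38 in SEM-K2 vehicle, 11.17 and 10.52 at EC50 and 10.78 and 10.26 at 3xEC50. All 4 obatoclax arrays lay below both vehicle arrays. The change at 3xEC50 was -0.82 ± 0.27 (adjusted p = 0.285, and 0.0571 with the block), and the other 2 probe sets gave -0.92 and -0.65. In RS4:11 it had 9.34 and 9.09 in vehicle, 9.06 and 8.60 at EC50 and 9.02 and 8.68 at 3xEC50. The obatoclax arrays were again below both vehicle arrays, by -0.38 ± 0.27 at EC50 and -0.36 ± 0.27 at 3xEC50 (adjusted p = 1 and 0.999).

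ACACA, the carboxylase that makes malonyl-CoA and sets the pace of fatty acid synthesis, had 9.21 and 9.47 in SEM-K2 vehicle, 8.91 and 8.89 at EC50 and 8.79 and 9.27 at 3xEC50. In RS4:11 it had 9.03 and 9.34 in vehicle, 8.67 and 8.96 at EC50 and 8.52 and 8.95 at 3xEC50. All 4 obatoclax arrays of RS4:11 were below both vehicle arrays, while in SEM-K2 the 3xEC50 arrays overlapped with vehicle. The changes at 3xEC50 were -0.31 ± 0.22 in SEM-K2 and -0.45 ± 0.22 in RS4:11 (adjusted p = 0.654 and 0.999, and 0.309 and 0.336 with the block). A second ACACA probe set, at a mean level of 6.72, gave -0.12 and 0.012 in the same comparisons, and 0.11 in RS4:11 at EC50, against -0.37 for the one used.

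ACSS2, the synthetase that makes acetyl-CoA from acetate, had 7.01 and 6.77 in SEM-K2 vehicle, 7.27 and 6.98 at EC50 and 7.54 and 7.70 at 3xEC50. The 3xEC50 arrays were above the rest, with a change of 0.73 ± 0.19 (adjusted p = 0.178, and 0.0905 with the block). In RS4:11 ACSS2 had 7.07 and 7.14 in vehicle, 7.20 and 7.64 at EC50 and 7.13 and 7.29 at 3xEC50, where only the EC50 arrays both lay above vehicle, at 0.31 ± 0.19 (adjusted p = 1). ACSL1, which activates long-chain fatty acids, had 8.25 and 8.14 in SEM-K2 vehicle, 8.77 and 8.90 at EC50 and 8.91 and 9.05 at 3xEC50. No obatoclax array overlapped with vehicle, and the changes were 0.64 ± 0.22 at EC50 and 0.79 ± 0.22 at 3xEC50 (adjusted p = 0.706 and 0.208, and 0.309 and 0.0953 with the block). Its other probe set gave 0.88 at 3xEC50. In RS4:11 ACSL1 ran between 7.59 and 8.20, with changes of -0.06 ± 0.22 and -0.03 ± 0.22.

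FASN, the fatty acid synthase itself, had 9.45 and 9.45 in SEM-K2 vehicle, 9.16 and 9.16 at EC50 and 9.48 and 8.73 at 3xEC50, the last on the array that stood apart. The changes were -0.29 ± 0.28 at EC50 and -0.34 ± 0.28 at 3xEC50 (adjusted p = 0.999 and 0.695). In RS4:11 FASN had 9.01 and 9.50 in vehicle, 8.77 and 9.27 at EC50 and 8.88 and 9.22 at 3xEC50, with overlap. SCD, the desaturase that makes oleate, had 11.13 and 10.51 in SEM-K2 vehicle, 11.32 and 10.57 at EC50 and 11.47 and 10.83 at 3xEC50. Its 3 other probe sets gave 0.04, -0.61 and -1.10 in SEM-K2 at 3xEC50, against 0.33 for the one used here. In RS4:11 SCD had 11.29 and 11.00 in vehicle, 11.27 and 10.69 at EC50 and 11.14 and 10.70 at 3xEC50. ACLY, which makes cytosolic acetyl-CoA from citrate, had 11.60 and 11.75 in RS4:11 at 3xEC50 against 11.84 and 11.94 in vehicle, a change of -0.22 ± 0.14 (adjusted p = 0.999). In SEM-K2 ACLY differed from vehicle by 0.08 ± 0.14, and FADS2, a desaturase of polyunsaturated fatty acids, by 0.13 ± 0.32. The other ACLY probe sets gave -0.15 and -0.26 in SEM-K2 and -0.38 and -0.34 in RS4:11 at 3xEC50.

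Each obatoclax array can be set against the vehicle array of its own line and replicate number, which gives 4 differences per line. In SEM-K2 17 of 30 genes were up in all 4, 14 sterol and 3 fatty acid genes, and 2 were down in all 4, ACACA and ELOVL6. Of all genes 22.5% were up and 11.6% down in all 4. In RS4:11 6 of 30 were up in all 4 (IDI1, SQLE, EBP, SC5D, INSIG1 and ACSS2) and 9 down, against 23.4% and 17.9% of all genes. By the probe sets used, the same 6 genes were up in all 8 differences of both lines, against 10.6% of all genes. By these probe sets ACACA and ELOVL6 were down in all 8, against 5.75%. Another SQLE probe set gave -0.23 on SEM-K2 3xEC50 replicate 2 and -0.089 in RS4:11 at EC50, and an IDI1 one gave -1.25 and -0.019. The SC5D one near the floor gave -0.29 in RS4:11 at 3xEC50. The doses of a line share its vehicle arrays, so these differences are not independent.

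**Figure D2:**
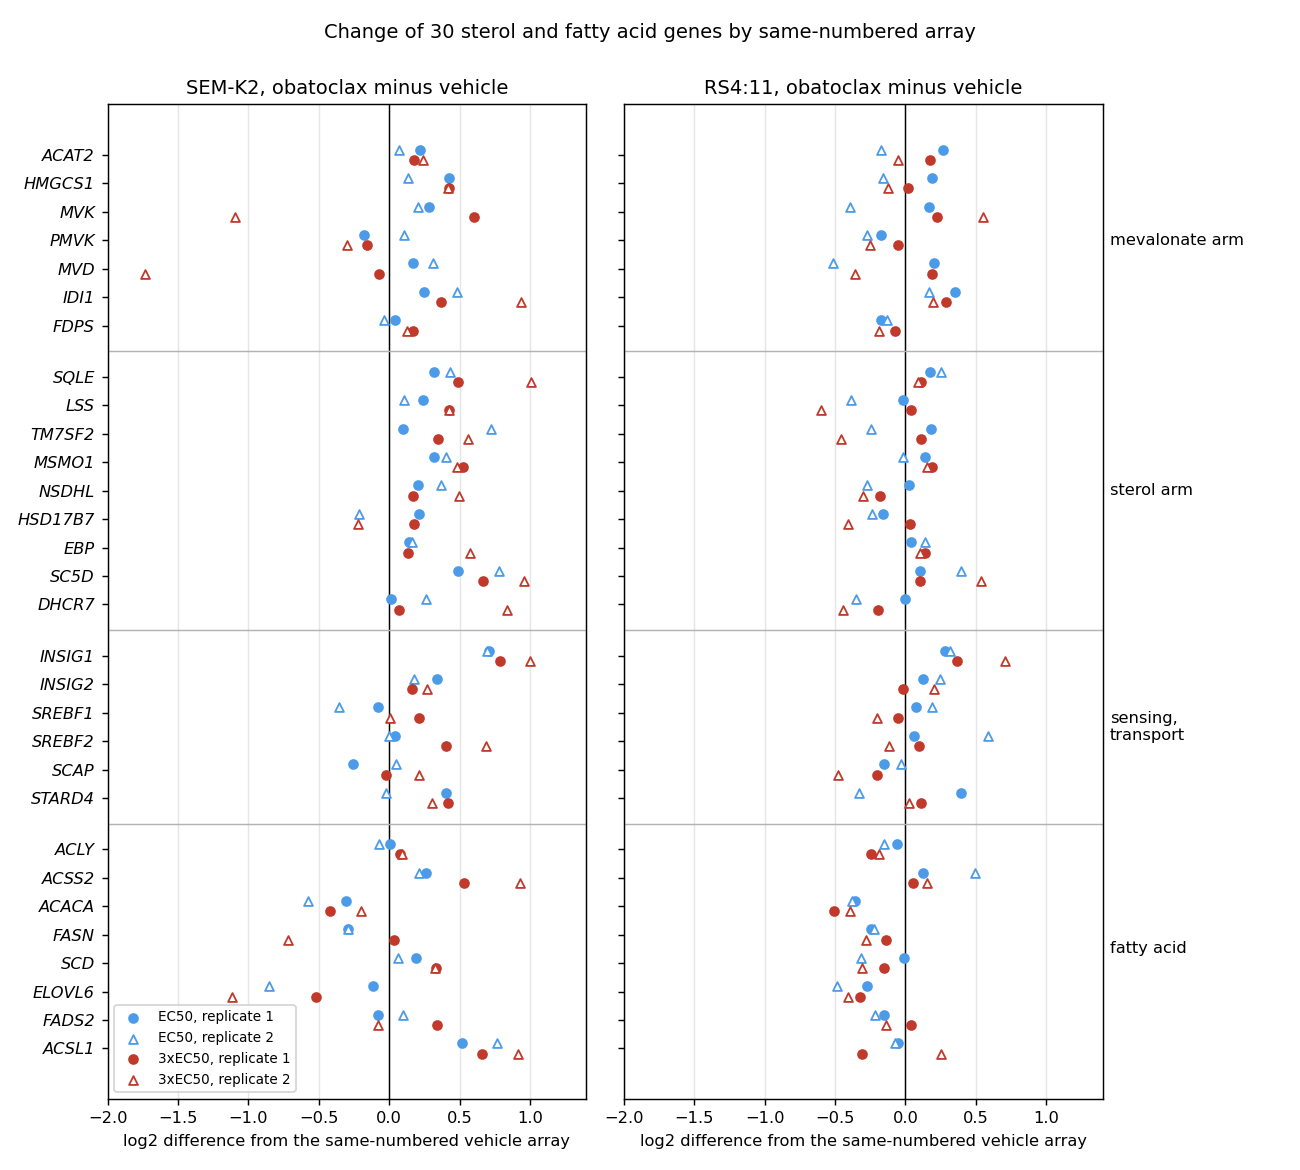
Log2 difference of each obatoclax array from the same-numbered vehicle array (horizontal axis) for the 30 genes, grouped by role, with SEM-K2 left and RS4:11 right. Blue is EC50 and red 3xEC50, filled circles are replicate 1 and open triangles replicate 2. Sterol arm genes in SEM-K2 lie mostly right of 0, MVK and MVD on SEM-K2 3xEC50 replicate 2 lie far left at -1.10 and -1.73, and ELOVL6 and ACACA lie left of 0 in both lines.

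The mean of the 4 obatoclax groups was then set against the mean of both vehicle groups. Without the block 0 of 30 genes were called, against 0.644% of all genes called up and 0.189% down. With the block INSIG1 rose by 0.61 (SE 0.09, adjusted p = 0.0104) and SC5D by 0.50 (SE 0.09, adjusted p = 0.0211), while ELOVL6 fell by 0.51 (SE 0.11, adjusted p = 0.0378) and ACACA fell by 0.39 (SE 0.09, adjusted p = 0.046). The second ACACA probe set gave -0.0097, so this fall was seen in 1 of 2 probe sets. Other INSIG1 probe sets gave 0.82 and 0.95, and those of ELOVL6 -0.54 and -0.62. The other SC5D probe set, near the floor at a mean level of 3.80, gave 0.043. These 2 up and 2 down compare with 2.68% and 1.42% of all genes. In 12 fits that each left out 1 array, INSIG1 was called in 11, SC5D in 7, ELOVL6 in 2 and ACACA in 1. No gene of the 30 was called without RS4:11 vehicle replicate 2.

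At EC50 in SEM-K2 0 of 30 genes were called with or without the block, against 0.17% of all genes without it and 0.436% with it. At an unadjusted p under 0.05 without the block SQLE, SC5D and ACSL1 were up, 3 of 30 against 3.97% of all genes. Both EC50 arrays lay above both vehicle arrays for SQLE, MSMO1, NSDHL, SC5D, INSIG1 and ACSL1, 6 of 30 against 21.8%, and below for ACACA, FASN and ELOVL6, 3 of 30 against 11.8%. In RS4:11 0 of 30 were called at either dose with or without the block, as were 0 of all 10561 genes in limma. At an unadjusted p under 0.05 without the block, 4.9% of all genes and 0 of the 30 passed at 3xEC50 in RS4:11, and 4.2% and 0 of 30 at EC50. With the block, INSIG1, SCAP and ACACA had an unadjusted p under 0.05 at 3xEC50 in RS4:11, against 9.76% of all genes. Both 3xEC50 arrays lay above both vehicle arrays for IDI1 and SQLE, 2 of 30 against 18.4%, and below for NSDHL, DHCR7, SCAP, ACLY, ACACA and ELOVL6, 6 of 30 against 15.9%. At EC50 they lay above for IDI1, SQLE and ACSS2, 3 of 30 against 17.5%, and below for FDPS, LSS, HSD17B7, ACLY, ACACA and ELOVL6, 6 of 30 against 12.9%.

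No gene of the 30, and 0 of all genes, was called for 3xEC50 against EC50 in either line with or without the block. At an unadjusted p under 0.05 without the block 2.22% of all genes passed in SEM-K2 and 0.805% in RS4:11. Among them SQLE, SREBF2 and ACSS2 were up in SEM-K2, 3 of 30 against 1.19% of all genes up. Their log2 steps were 0.37, 0.53 and 0.49, beside whole changes at 3xEC50 of 0.75, 0.55 and 0.73. The other probe sets gave steps of -0.22 and -0.19 for SREBF2, and of 0.37, 0.12 and -0.073 for SQLE. Without SEM-K2 3xEC50 replicate 1, 36 of all genes were called for the SEM-K2 step. That fit held SEM-K2 at 3xEC50 by replicate 2 alone, the array that stood apart in RNA quality. The sterol median of the dose step was 0.16 in SEM-K2 and -0.0019 in RS4:11.

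Whether the lines responded differently was tested as the SEM-K2 response minus the RS4:11 response. No gene of the 30 was called with or without the block, against 0.0379% of all genes at 3xEC50 without the block, 0.0473% with it, and 0.00947% at EC50 in both fits. The median difference of the 22 sterol genes was 0.34 at 3xEC50 and 0.19 at EC50, with 19 of 22 above 0 at each dose, beside medians of 0.05 and 0.04 over all genes and 57.6% and 57.3% of all genes above 0. All 9 sterol arm genes were above 0 at both doses. For the 8 fatty acid genes the median was 0.24 at 3xEC50 and 0.01 at EC50.

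The largest single differences at 3xEC50 were in ACSL1 at 0.81 (95% interval with the block 0.16 to 1.46, adjusted p = 0.665), DHCR7 at 0.78 (0.18 to 1.38, adjusted p = 0.648), LSS at 0.71 (-0.0025 to 1.42, adjusted p = 0.78) and SQLE at 0.65 (0.17 to 1.12, adjusted p = 0.585), apart from MVD at -0.82 (-2.88 to 1.25). Other probe sets gave 1.18 for ACSL1, 0.21 for DHCR7 and -0.51 for LSS, and for SQLE 0.47, 0.43 and -0.049. With the block 7 of 30 genes had an unadjusted p under 0.05 at 3xEC50, all higher in the SEM-K2 response (SQLE, NSDHL, SC5D, DHCR7, ACSS2, SCD and ACSL1), against 4.44% of all genes. For INSIG1 the difference was 0.36 (-0.11 to 0.83) at 3xEC50 and 0.40 (-0.07 to 0.87) at EC50. These intervals hold both no difference and a response in SEM-K2 larger by more than the whole RS4:11 change. For ELOVL6 the difference was -0.45 (-1.02 to 0.12) at 3xEC50, and -0.50 and 0.26 by its other probe sets. Both responses are read against single vehicle groups of 2 arrays.

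The lines were also compared in vehicle. In SEM-K2 vehicle against RS4:11 vehicle 3 of 30 genes were called, 1 up and 2 down. That is a smaller share each way than the 10% and 9.6% of all genes. ELOVL6 had 11.29 and 11.38 in SEM-K2 vehicle against 9.34 and 9.09 in RS4:11 vehicle, a difference of 2.12 ± 0.27, or 4.35-fold (adjusted p = 4.38e-04), and its other probe sets went the same way. SQLE had 11.90 and 11.55 against 12.63 and 12.54, a difference of -0.86 ± 0.16 (adjusted p = 0.00483). DHCR7 had 6.70 and 6.15 against 7.83 and 7.69, a difference of -1.33 ± 0.24 (adjusted p = 0.00384). These 3 calls held in all 12 fits that each left out 1 array, with and without the block.

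With the block 6 of 30 were called, 3 up and 3 down, against 13.8% and 13% of all genes. The additional calls were HMGCS1, higher in SEM-K2 by 0.45 (adjusted p = 0.0499, and 0.326 without the block), SREBF1, higher by 0.49 (adjusted p = 0.0374, and 0.448 without), and TM7SF2, with a difference of -1.02 (adjusted p = 0.0382, and 0.104 without). The second SREBF1 probe set, at a mean level of 5.83, gave -0.082, while that of HMGCS1 gave 0.56. TM7SF2 averaged 6.44 in SEM-K2 vehicle and 7.46 in RS4:11 vehicle. Leaving out 1 array at a time, SREBF1 and TM7SF2 were each called in 6 of 12 fits and HMGCS1 in 2, and none of the 3 was called without SEM-K2 vehicle replicate 2, RS4:11 vehicle replicate 2 or either RS4:11 3xEC50 array. The difference of TM7SF2 was -0.60 without SEM-K2 vehicle replicate 2 and -0.57 without RS4:11 vehicle replicate 2, and reached -1.48 without RS4:11 vehicle replicate 1. It ran from 0.30 to 0.60 for HMGCS1 and from 0.41 to 0.57 for SREBF1. At 3xEC50 SQLE in SEM-K2, with 12.38 and 12.55, came close to the 12.63 and 12.54 of RS4:11 vehicle. The sterol genes had a median difference of -0.15 between the vehicles, with 7 of 22 above 0, and the fatty acid genes 0.18, with 6 of 8, beside 0.01 and 51.4% for all genes.

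**Figure D3:**
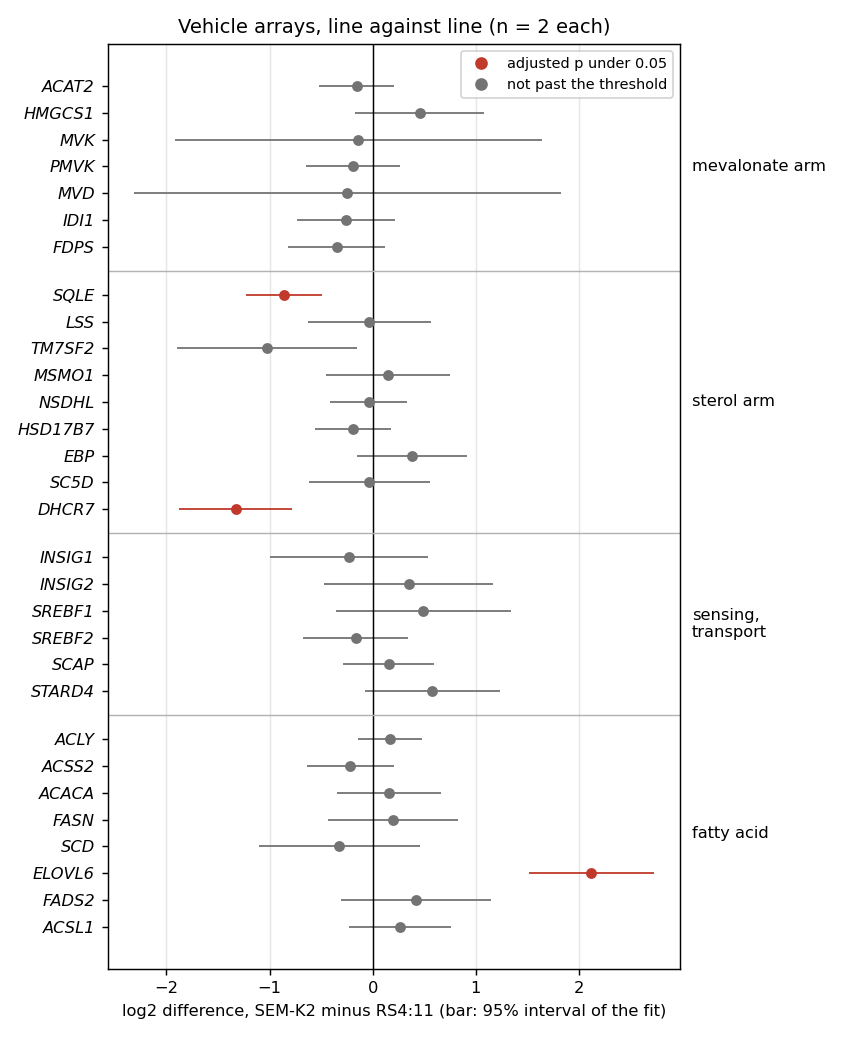
Log2 difference SEM-K2 vehicle minus RS4:11 vehicle (horizontal axis, 2 arrays per line) for the 30 genes by role, with the 95% interval of the fit without the block as bars. Red marks the 3 genes with an adjusted p under 0.05, ELOVL6 at 2.12, SQLE at -0.86 and DHCR7 at -1.33, and grey the other 27.

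Replicate number went with the level of many of these genes. Replicate 1 lay above replicate 2 in all 6 groups for 12 of 30 genes (HMGCS1, MVK, IDI1, FDPS, MSMO1, SC5D, INSIG1, INSIG2, SREBF1, STARD4, SCD and FADS2), against 13% of all genes. It lay below in all 6 groups for SCAP alone, against 8.72% of all genes. By at least 0.3 in all 6 groups it lay above for MVK, MSMO1 and SREBF1, against 1.68% of all genes. For INSIG1 the mean difference was 0.54, and in RS4:11 vehicle it was 0.76, more than the 0.54 change at 3xEC50. For SREBF1 the mean difference was 0.60 and for SCD 0.55, more than any change with dose by the probe sets used. The other SCD probe sets gave 0.04, -0.61 and -1.10 in SEM-K2 at 3xEC50. What the replicate numbers stand for is not given in the sources used here.

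**Figure D4:**
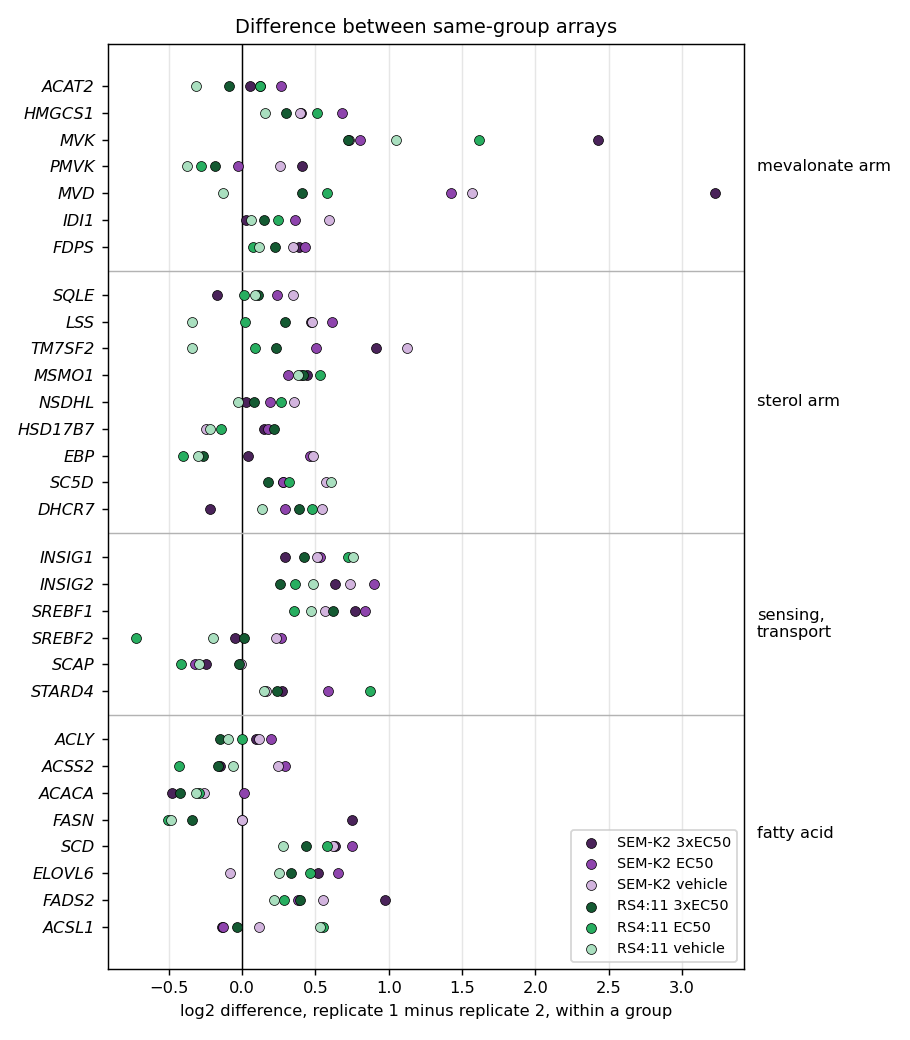
Log2 difference of replicate 1 minus replicate 2 (horizontal axis) within each of the 6 groups for the 30 genes by role, with SEM-K2 in purples and RS4:11 in greens, darker at higher dose. INSIG1, SREBF1, MSMO1 and SCD lie right of 0 in every group, and MVD and MVK reach 3.23 and 2.43 in SEM-K2 3xEC50.

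Genes next to these pathways were counted in lists. Against vehicle no gene of the 4 lists (17 genes of isoprenoid branches and SREBP processing, 12 of sterol uptake, storage and efflux, 17 of fatty acid elongation and lipid assembly, and 13 of fatty acid oxidation) was called without the block in either line. With the block, in SEM-K2 at 3xEC50, 2 of 12 uptake, storage and efflux genes were called up and 0 down, and 0 in the other lists. Of all genes 1.55% were called up and 0.53% down in that fit. NPC2, which hands cholesterol out of the lysosome, had 10.80 and 10.46 in SEM-K2 at 3xEC50 against 9.98 and 8.84 in vehicle, a rise of 1.22 with the block (adjusted p = 0.0371). VLDLR, a lipoprotein receptor, had 8.57 and 8.35 against 7.99 and 7.62, a rise of 0.65 with the block (adjusted p = 0.0438).

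Over both doses and lines with the block, NPC2 rose by 1.01 (adjusted p = 0.00879). The lipoprotein receptor gene LRP8 fell by 0.45 (adjusted p = 0.0253) and ACSL4, which activates polyunsaturated fatty acids, fell by 0.78 (adjusted p = 0.0229). These were 1 up and 1 down of 12 uptake, storage and efflux genes and 1 down of 17 elongation and assembly genes. Of all genes 2.68% were called up and 1.42% down. The median change in SEM-K2 at 3xEC50 was 0.07 for isoprenoid and SREBP processing genes, 0.11 for uptake, storage and efflux, 0.09 for elongation and assembly and -0.0013 for oxidation, beside 0.36 for the 22 sterol genes and 0.06 for all genes. Between the vehicles without the block, SCD5, a second stearoyl desaturase, was higher in SEM-K2 by 1.25 (limma adjusted p = 0.00631). LPIN1, a phosphatidate phosphatase, was higher by 1.20 (limma adjusted p = 0.00365). ME1, the malic enzyme that supplies NADPH, was called at 1.96 (limma adjusted p = 0.00731). It had 5.15 and 3.996 in SEM-K2 vehicle against 2.6 on both RS4:11 vehicle arrays, all but the first under the floor. ME1 passed the filter on low values through SEM-K2 arrays alone, so its call and size carry no weight here. Also higher were AGPAT5, GPAM, HSD17B12, ACADVL, FNTA and NPC1, by 0.69 to 0.94, and RNF139 differed by -0.73. CPT1A, which admits fatty acids to the mitochondrion for oxidation, differed by -1.12 (adjusted p = 0.00536) and VLDLR by -1.68 (adjusted p = 4.83e-04). COQ2 and MYLIP were called with the block alone, higher in SEM-K2 by 0.69 and 1.01. Without the block, calls up and down were 2 and 1 of 17 isoprenoid and SREBP processing genes and 1 and 1 of 12 uptake genes. They were 5 and 0 of 17 elongation and assembly genes, with ME1 among the 5, and 1 and 1 of 13 oxidation genes. Of all genes 10% and 9.6% were called up and down. With the block the isoprenoid list had 3 and 1 and the uptake list 2 and 1, against 13.8% and 13%.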

How the data were processed

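Total RNA of 12 cell line samples was labelled and hybridised to Affymetrix U133 Plus 2 arrays, per the labels' protocols. GCRMA made the deposited values, according to the submitters' processing notes, which give no version. The authors' deposited values were read as log2 because they ran from 0.64 to 16.22 with array medians of 3.13 to 3.16. No counts lie behind them, and precision is limited by how few arrays there are. Among 54675 probe sets, 41097 had 1 gene symbol, and 41043 of these matched RefSeq genes of GRCh38.p14 by Entrez identifier. Per gene the probe set with the highest mean was kept where it exceeded 4 in at least 2 arrays.

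The test was limma 3.58.1 (lmFit, then eBayes) under R 4.3.3 (data.table package 1.17.8), in a model of 6 group means (6 residual and 3.27 prior degrees of freedom), adjusted by Benjamini-Hochberg over 10561 genes, and called at an adjusted p under 0.05. The fit was tested on simulated data. Same-numbered arrays deviated together: the correlations of the replicate 1 minus replicate 2 difference between groups ran from 0.19 to 0.60 over 15 pairs (median 0.35), all above 0.1, so the numbers were taken to pair the arrays. This comes from the data, since the labels do not say what a number marks. The fit with replicate number as a block is therefore printed beside results it changes. Alternatives were the block (also within each line), array medians made equal, a floor of 5 or none, averaged probe sets per gene, no less specific (_x_at) sets, a trended robust variance, a fit on 1 line and each array left out.

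Every gene is named with values, and of the other lists the called genes. Full statistics were planned for called genes (between the vehicles at most the 4 highest and 4 lowest). They were also planned for the 3 largest non-overlapping rises and falls per dose contrast among sterol and among fatty acid genes. INSIG1, SREBF1, SREBF2, SQLE, HMGCS1, SCD and FASN were to have them throughout. For some of these genes and contrasts only the levels, the change or the name is given above. Genes, lists and tests were chosen with earlier results of these data known.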

Additional observations from a re-analysis of the deposited data

Results flagged for a closer look

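Some genes moved one way in both same-numbered differences of SEM-K2 and the other way in both of RS4:11. At 3xEC50 these were 6 of 30, as were 9.42% of all genes: FDPS, with a SEM-K2 minus RS4:11 response of 0.28, NSDHL with 0.58, DHCR7 with 0.78, SREBF1 with 0.24, ACLY with 0.30 and SCD with 0.56. At EC50 they were 5 of 30, as were 7.46% of all genes: LSS with 0.38, DHCR7 with 0.31, SREBF1 with -0.35, SCD with 0.29 and ACSL1 with 0.70. The difference itself was tested with limma and none was called, with adjusted p = 1 for each without the replicate block and 0.635 to 0.999 with it. These values are of the probe sets used. At 3xEC50 the others gave 0.21 for DHCR7, 0.32 for NSDHL, 0.25 for SREBF1, 0.24, -0.11 and -0.92 for SCD, and 0.23 and 0.081 for ACLY, whose other probe sets had mean changes below 0 in both lines. SREBF1 had opposite signs at the 2 doses.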

How the results depend on the processing

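The counts of called genes depended on the replicate block. In SEM-K2 at 3xEC50 they were 3 with the replicate block and 3 with a replicate block within each line, against 0 without, and 1 with a trended, robust variance. Between the vehicles they were 6 and 6, against 3, and over both doses and lines 4 and 4, against 0. The replicate block changed no other call of the 30 genes. With it, leaving out 1 array at a time, a choice made after seeing the data, gave 0 to 5 genes in SEM-K2 at 3xEC50 (0 without SEM-K2 3xEC50 replicate 2 or SEM-K2 vehicle replicate 2, 5 without SEM-K2 vehicle replicate 1). It gave 3 to 6 between the vehicles and 0 to 5 over both doses and lines (0 without RS4:11 vehicle replicate 2). Without the block the ranges were 0 to 1 (SQLE, without SEM-K2 vehicle replicate 1), 3 to 4 and 0 to 0. A group left with 1 array was taken to vary like the others.

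The mean over a gene's probe sets, in place of the highest, gave sterol medians of 0.18 in SEM-K2 at 3xEC50, 0.00 for the SEM-K2 dose step, 0.019 for the RS4:11 dose step and 0.24 for the line difference at 3xEC50. It gave fatty acid medians of -0.15 in SEM-K2 at 3xEC50, -0.042 at EC50, 0.021 for the SEM-K2 dose step, 0.10 for the line difference at 3xEC50 and -0.15 over both doses and lines. With array medians made equal, the sterol medians were 0.15 in SEM-K2 at EC50 and 0.013 for the RS4:11 dose step, and the fatty acid medians -0.078 in SEM-K2 at EC50, 0.11 for the SEM-K2 dose step, 0.18 for the line difference at 3xEC50 and -0.10 over both doses and lines. Without the less specific probe sets the sterol median of the RS4:11 dose step was 0.013. Leaving out 1 array gave sterol medians of 0.15 to 0.59 in SEM-K2 at 3xEC50, -0.077 to 0.48 at EC50, -0.069 to 0.38 for the step, -0.055 to 0.059 in RS4:11 at 3xEC50, -0.082 to 0.12 at EC50 and -0.13 to 0.066 for the step. They were 0.12 to 0.54 for the line difference at 3xEC50, 9e-04 to 0.45 at EC50, -0.28 to 0.14 between the vehicles and -0.011 to 0.23 over both doses and lines. The fatty acid medians were -0.064 to 0.37 in SEM-K2 at 3xEC50, -0.23 to 0.16 at EC50, -0.021 to 0.24 for the step, -0.23 to -0.12 in RS4:11 at 3xEC50, -0.27 to -0.073 at EC50 and -0.064 to 0.056 for the step. They were 0.24 to 0.45 for the line difference at 3xEC50, -0.069 to 0.20 at EC50, 0.060 to 0.26 between the vehicles and -0.15 to 0.038 over both doses and lines.

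Some changes that passed no test turned in sign, and the cause was not tested. With the mean of probe sets, SEM-K2 at 3xEC50 gave -0.031 for SREBF2, -0.040 for HMGCS1 and -0.33 for SCD, SEM-K2 at EC50 -0.068 for SREBF2, and RS4:11 at EC50 -0.28 for HMGCS1. With array medians made equal, SREBF2 in SEM-K2 at EC50 gave -0.047 and HMGCS1 in RS4:11 at EC50 -0.021. IDI1 in RS4:11 at EC50 gave -0.019 without the less specific probe sets. Leaving out 1 array, SEM-K2 at 3xEC50 gave -0.28 to 0.49 for SREBF1 and -0.72 to 0.031 for FASN. SEM-K2 at EC50 gave -0.64 to 0.20 for SREBF1, -0.11 to 0.15 for SREBF2, -0.063 to 0.62 for HMGCS1 and -0.25 to 0.50 for SCD. RS4:11 at 3xEC50 gave -0.44 to 0.18 for SREBF1, -0.11 to 0.088 for SREBF2, -0.20 to 0.10 for HMGCS1 and -0.45 to 0.035 for FASN. RS4:11 at EC50 gave -0.078 to 0.68 for INSIG1, -0.10 to 0.37 for SREBF1, -0.036 to 0.69 for SREBF2, -0.24 to 0.27 for HMGCS1, -0.45 to 0.13 for SCD and -0.49 to 0.022 for FASN. Neither a floor of 5 nor no filter changed a call or a sign of the 30 genes reported above. The same held for a fit on 1 line only, run just for the dose comparisons within a line, where the fit without the block had no calls to lose. With 2 arrays a group, the number of arrays limits what can be called.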
